A study of Mus musculus with 6 samples.

Results

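Retinoic acid is the active form of vitamin A, and 9 genes for its uptake, synthesis, binding, sensing and breakdown were followed here: Stra6, Aldh1a1, Aldh1a2, Aldh1a3, Crabp1, Crabp2, Rarb, Cyp26a1 and Cyp26b1. They were taken by name as the array rows whose annotation gives 1 of these symbols and no other. All 9 were found, each in 1 row, among 22180 genes measured. Expression was measured on Affymetrix arrays in pooled hearts of C57BL/6 mouse embryos at embryonic day 9.5. The 3 Hdac3-Isl1KO pools carried the genotype Hdac3-flox/flox; Isl1-Cre, and the 3 Hdac3-flox/flox pools carried the same floxed alleles of the deacetylase gene Hdac3 without Cre. Isl1-Cre recombines floxed alleles in cells that express Isl1, among them second heart field progenitors, so only some of the heart cells were targeted. The Cre allele was present in the Hdac3-Isl1KO pools alone, so its own effect and that of Hdac3 loss cannot be told apart. The number of hearts per pool and the litters behind the pools are not stated, so p-values measure only the spread among these 6 pools, and that spread may be technical.

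Cells take up retinol through the membrane receptor STRA6, oxidise it to retinal and then, through the retinal dehydrogenases ALDH1A1, ALDH1A2 and ALDH1A3, to retinoic acid. The CRABP proteins carry retinoic acid in the cytosol, the nuclear receptors of the RAR family bind DNA with RXR partners and respond to it, and the CYP26 enzymes hydroxylate and inactivate it. In the early embryo retinoic acid made mainly by Aldh1a2 patterns the heart tube along its length and limits the second heart field at its posterior end, and Aldh1a2 also marks the epicardium. Receptors without retinoic acid recruit corepressor complexes that contain HDAC3.

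The promoters of 2 of these genes, Rarb and Cyp26a1, are shown because they hold letters that match the known form of the retinoic acid response element, a direct repeat to which the receptors bind. No promoter window was available for Aldh1a3 and Crabp2, so those genes were not searched. The RefSeq promoter windows, 250 bases before to 50 after each transcript start on GRCm38.p6, were available for the other 7 of the 9 genes. They were searched on both strands for direct repeats, spaced by 1, 2 or 5 bases, of the hexamer AGGTCA and its variants with GGG (GGGTCA), with a T (AGTTCA) or with both changes (GGTTCA). The repeat with a spacer of 5 was found in the windows of Rarb and Cyp26a1 and in 32 of all 32851 windows (0.0974%). Repeats with a spacer of 1 or 2 were found in 0 of the windows of these genes, and in 0.222% and 0.268% of all windows. The repeats read 5′ to 3′ as follows, with the hexamers in capitals and the spacer in lower case.
Rarb: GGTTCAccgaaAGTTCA
Cyp26a1: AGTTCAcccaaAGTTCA
Relative to the transcript start, the Rarb repeat lay at -53 to -37 on the strand of the gene, and the Cyp26a1 repeat at -32 to -16 on the opposite strand. They shared 15 of 17 bases and differed by G1A and G9C, from Rarb to Cyp26a1 and counted from the 5′ end of the repeat.

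The whole windows follow, with the repeat in capitals. Rarb is on the minus strand at chr14:16575427-16575726 and Cyp26a1 on the plus strand at chr19:37697558-37697857 (GRCm38.p6, from RefSeq).
Rarb: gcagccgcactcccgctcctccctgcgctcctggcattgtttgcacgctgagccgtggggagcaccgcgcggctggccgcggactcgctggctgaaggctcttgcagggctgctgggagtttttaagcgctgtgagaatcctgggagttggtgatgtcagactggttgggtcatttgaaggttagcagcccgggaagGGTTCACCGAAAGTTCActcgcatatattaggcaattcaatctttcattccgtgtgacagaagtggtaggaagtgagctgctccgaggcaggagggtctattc
Cyp26a1: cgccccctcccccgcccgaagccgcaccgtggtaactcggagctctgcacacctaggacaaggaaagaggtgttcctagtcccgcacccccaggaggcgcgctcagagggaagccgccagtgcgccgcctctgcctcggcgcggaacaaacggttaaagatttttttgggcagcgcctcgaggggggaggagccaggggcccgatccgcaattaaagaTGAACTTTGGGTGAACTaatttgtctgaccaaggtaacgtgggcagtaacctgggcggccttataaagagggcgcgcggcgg
In the Cyp26a1 window the capitals read as the reverse complement of the repeat given above.

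The windows of Aldh1a1 and Aldh1a2 are shown because these 2 genes had the largest negative differences of the 9. Neither held such a repeat. The longest run of letters they shared on the same strand, over the window at the second listed Aldh1a1 start, was TATGCAAATG, 10 bases found in 56 of all windows (0.17%). It contains ATGCAAAT, the octamer known as the recognition sequence of POU-domain factors. This octamer was found on either strand in 1.74% of all windows. Among the 7 genes that had a window, it was found for Aldh1a1 and Aldh1a2. The window at the first listed Aldh1a1 start, not printed, held no octamer. Its longest run shared with Aldh1a2 was 7 bases, found in 0.916% of all windows. The octamer was looked for after the windows had been seen. In Aldh1a1 (chr19:20601718-20602017, plus strand) it lay at -56 to -49 relative to the start and overlapped by 1 base a single GGGTCA hexamer on the opposite strand, at -49 to -44. A hexamer of the searched set was found on either strand in 43.7% of all windows, among them windows of Stra6, Rarb and Cyp26a1. In Aldh1a2 (chr9:71215539-71215838, plus strand) the octamer lay at -84 to -77. The octamer is in capitals.
Aldh1a1: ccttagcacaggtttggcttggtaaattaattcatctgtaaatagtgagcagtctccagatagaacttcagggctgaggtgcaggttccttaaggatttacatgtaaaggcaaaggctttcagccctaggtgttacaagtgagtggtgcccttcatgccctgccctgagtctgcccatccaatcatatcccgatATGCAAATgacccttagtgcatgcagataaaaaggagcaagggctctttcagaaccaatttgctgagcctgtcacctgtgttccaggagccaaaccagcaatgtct
Aldh1a2: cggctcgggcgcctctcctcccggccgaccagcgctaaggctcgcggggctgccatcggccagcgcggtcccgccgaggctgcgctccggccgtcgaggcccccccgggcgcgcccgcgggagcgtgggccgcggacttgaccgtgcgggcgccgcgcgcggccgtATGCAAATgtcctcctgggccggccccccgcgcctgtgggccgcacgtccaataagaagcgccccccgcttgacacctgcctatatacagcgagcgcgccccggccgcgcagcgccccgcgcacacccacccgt
These matches describe the letters only, and binding was not measured here.

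The arrays correlated with each other at 0.980 to 0.989, and their medians over all rows lay between 5.64 and 5.71 on the log2 scale. The array that correlated least with the rest, at a mean of 0.982, was Hdac3-flox/flox replicate 2, which also stood farthest out on the first principal component. Cardiomyocyte markers were bright, with a mean over 7 genes of 11.87 to 11.91 per array in Hdac3-Isl1KO and 11.97 to 11.98 in Hdac3-flox/flox. Hdac3 read 9.11, 9.20 and 9.31 in Hdac3-Isl1KO, against 9.67, 9.73 and 9.64 in Hdac3-flox/flox, a difference of -0.47 with a limma adjusted p of 0.0636. The Hdac3 call depended on the setting: it passed in 4 of 14 alternatives, without genes below the 25th percentile row (limma adjusted p = 0.0335) or the median row (0.0109), with the trended prior (0.00111) and with array weights (0.0419), and the adjusted p reached 0.244 without Hdac3-Isl1KO replicate 2. Whether its probes cover the floxed exons is not known here, so it checks the labels only in part.

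Between the genotypes 1 of the 9 genes passed the threshold, an adjusted p under 0.05 over all 22180 genes with limma. That gene was Aldh1a1, which fell, against 0.428% of all genes called in either direction and 0.198% called lower. The 9 genes were chosen with earlier results of these data known, so the call is no independent evidence. At an unadjusted limma p under 0.05 there were 3 of the 9, Aldh1a1, Aldh1a2 and Crabp2, against 14.5% of all genes. The same 3 had groups that did not overlap, against 21.8% of all genes. Crabp2 was the 1 without overlap that was higher (9.41% of all genes), and Aldh1a1 and Aldh1a2 were the 2 that were lower (12.4%). The 9 had a median difference of 0.046, with 5 above and 4 below 0, and all genes had a median of 9.4e-05. All differences are on the log2 scale and taken as Hdac3-Isl1KO minus Hdac3-flox/flox.

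**Figure D1:**
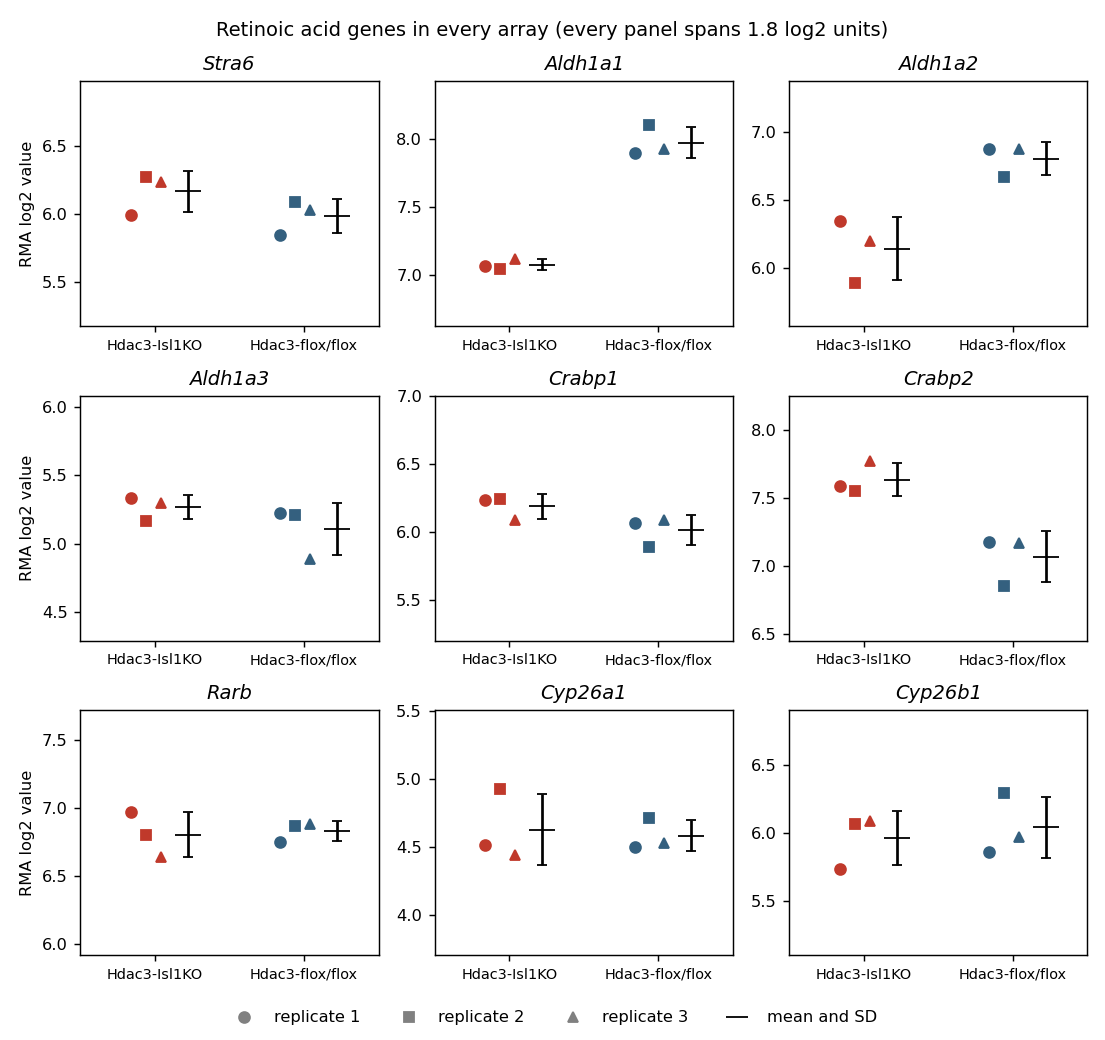
RMA log2 values of the 9 genes in each array, with Hdac3-Isl1KO in red on the left and Hdac3-flox/flox in blue on the right of each panel, and the mean and SD of 3 arrays in black. The groups stand apart for Aldh1a1, Aldh1a2 and Crabp2 and overlap for the other 6.

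Stra6, the retinol uptake receptor, read 5.99, 6.27 and 6.23 in Hdac3-Isl1KO, against 5.85, 6.09 and 6.03 in Hdac3-flox/flox. The lowest Hdac3-Isl1KO array lay below the upper 2 Hdac3-flox/flox arrays. The difference was 0.18 (95% interval -0.070 to 0.43, limma adjusted p = 0.491), and the interval allows anything from 0.953 to 1.34 times the Hdac3-flox/flox level. Without Hdac3-flox/flox replicate 1 the difference was 0.11.

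Of the retinal dehydrogenases, Aldh1a1 had the largest difference of the 9 genes in either direction. It read 7.07, 7.05 and 7.12 in Hdac3-Isl1KO, against 7.90, 8.10 and 7.93 in Hdac3-flox/flox. The Hdac3-Isl1KO arrays lay close together, and every one was far below the lowest Hdac3-flox/flox array. The means were 7.08 ± 0.039 in Hdac3-Isl1KO and 7.98 ± 0.11 in Hdac3-flox/flox (SD, n = 3 each), a difference of -0.90 (95% interval -1.08 to -0.71), which left 0.537 times the Hdac3-flox/flox level (0.472 to 0.612). With limma the unadjusted p was 1.01e-05, the 18th smallest of all genes, and the adjusted p was 0.0124. With 1 array left out the difference stayed between -0.94 and -0.83, but the limma adjusted p missed the threshold in 5 of 6 cases. It was 0.0804, 0.0910 and 0.0832 without Hdac3-Isl1KO replicate 1, 2 or 3, and 0.0603, 0.0448 and 0.0608 without Hdac3-flox/flox replicate 1, 2 or 3. In bulk hearts, fewer cells of a type and less RNA per cell cannot be told apart, and this holds for every gene below.

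Aldh1a2, the main source of retinoic acid in the early embryo, read 6.35, 5.89 and 6.20 in Hdac3-Isl1KO, against 6.88, 6.67 and 6.87 in Hdac3-flox/flox. All 3 Hdac3-Isl1KO arrays lay below all Hdac3-flox/flox arrays, but they were spread over a wider range than those of Aldh1a1. The means were 6.14 ± 0.23 in Hdac3-Isl1KO and 6.81 ± 0.12 in Hdac3-flox/flox (SD, n = 3 each). The difference of -0.66 (95% interval -0.97 to -0.35), or 0.632 times the Hdac3-flox/flox level, did not pass over all genes (limma adjusted p = 0.101). It ranked 318th by p. It passed in 2 of 14 alternative settings, with the variance prior trended on expression level (limma adjusted p = 0.0129) and when genes dimmer than the median row were dropped (0.0241), and it moved from -0.76 without Hdac3-Isl1KO replicate 1 to -0.53 without Hdac3-Isl1KO replicate 2.

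Aldh1a3, the third enzyme of the family, read 5.34, 5.17 and 5.30 in Hdac3-Isl1KO, against 5.22, 5.21 and 4.89 in Hdac3-flox/flox. The groups overlapped, and Hdac3-flox/flox replicate 3 was the lowest array. The difference was 0.16 (95% interval -0.096 to 0.42, limma adjusted p = 0.547), and it was 0.054 without Hdac3-flox/flox replicate 3 and 0.11 with array weights. Both groups lay below the median row of the array, 5.66, where RMA values understate differences. The rest of the aldehyde dehydrogenase family, taken by symbol after the values were known, held 18 measured genes with a median difference of -0.058. With limma 0 passed over all genes and 4 of the 18 had an unadjusted p under 0.05, against 14.5% of all genes, all 4 of them lower in Hdac3-Isl1KO. Those were Aldh1l2 (-0.48), a mitochondrial folate enzyme, Aldh6a1 (-0.45), an enzyme of valine breakdown, the mitochondrial aldehyde dehydrogenase Aldh1b1 (-0.44) and Aldh5a1 (-0.25), which clears succinic semialdehyde, with limma adjusted p-values from 0.0790 to 0.293. Aldh1a7, which lies next to Aldh1a1 and is a close relative of it, differed by 0.092 (95% interval -0.17 to 0.35). It was dim, with means of 4.66 in Hdac3-Isl1KO and 4.57 in Hdac3-flox/flox. Whether probes of these relatives also take up each other's RNA was not tested.

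**Figure D2:**
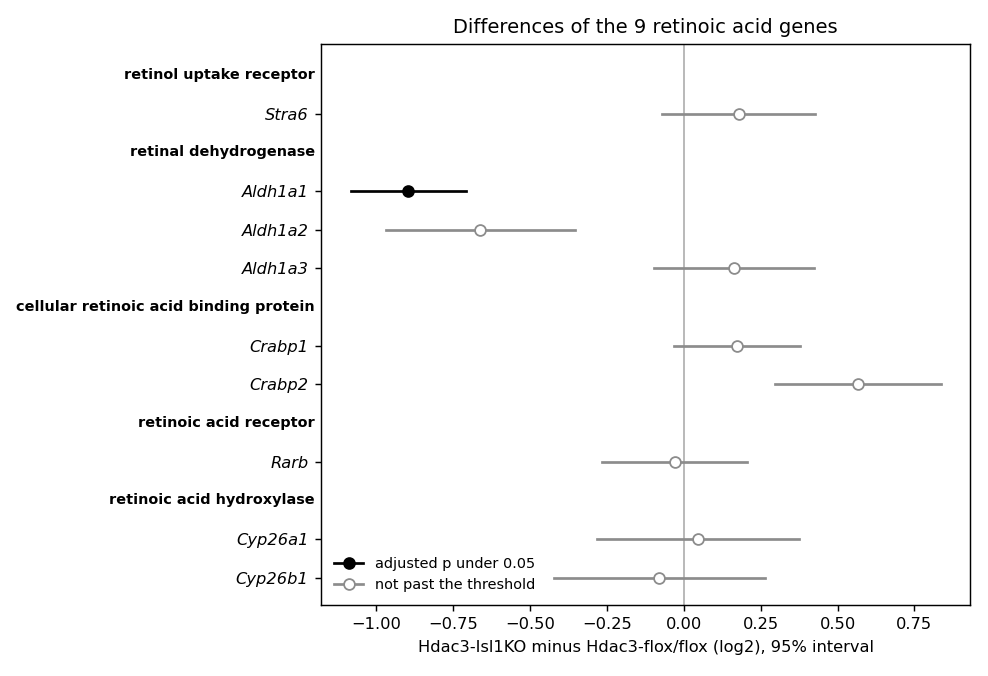
Difference of each gene between Hdac3-Isl1KO and Hdac3-flox/flox (log2) with its 95% interval from limma, grouped by role. The filled point is the gene past the threshold, Aldh1a1, and the intervals of Aldh1a1, Aldh1a2 and Crabp2 do not reach 0.

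Whether relatives within a family changed unequally was asked with the difference between 2 genes within each array, in which any array-wide shift cancels. Aldh1a1 minus Aldh1a3 averaged 1.81 ± 0.077 in Hdac3-Isl1KO and 2.87 ± 0.18 in Hdac3-flox/flox (SD, n = 3 each; exact permutation p = 0.1). Aldh1a2 minus Aldh1a3 averaged 0.88 ± 0.14 in Hdac3-Isl1KO and 1.70 ± 0.27 in Hdac3-flox/flox (SD, n = 3 each; exact permutation p = 0.1). Both pairs had groups that did not overlap. The changes of the genotype means were -1.06 and -0.83. These are 2 of 4 pairs tested, all two-sided, and 3 arrays against 3 allow no p below 0.1. Adjusted over the 4 pairs, both exact permutation values were 0.133.

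Of the binding proteins, Crabp2, which delivers retinoic acid to its receptors, read 7.59, 7.55 and 7.77 in Hdac3-Isl1KO, against 7.18, 6.86 and 7.17 in Hdac3-flox/flox. Every Hdac3-Isl1KO array lay above every Hdac3-flox/flox array, and Hdac3-flox/flox replicate 2 was the lowest. The means were 7.64 ± 0.12 in Hdac3-Isl1KO and 7.07 ± 0.19 in Hdac3-flox/flox (SD, n = 3 each). The difference of 0.57 (95% interval 0.30 to 0.84), or 1.48 times the Hdac3-flox/flox level, did not pass over all genes (limma adjusted p = 0.105, 348th by p). It was 0.46 without Hdac3-flox/flox replicate 2, and it passed in the same 2 settings as Aldh1a2, with limma adjusted p-values of 0.0105 and 0.0255.

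Crabp1, its relative that in the embryo marks neural crest and hindbrain cells, read 6.23, 6.25 and 6.09 in Hdac3-Isl1KO, against 6.07, 5.89 and 6.09 in Hdac3-flox/flox. The groups met at their edges, where Hdac3-Isl1KO replicate 3 and Hdac3-flox/flox replicate 3 were nearly equal. The difference was 0.17 (95% interval -0.033 to 0.38, limma adjusted p = 0.424), and it was 0.11 without Hdac3-flox/flox replicate 2. Within arrays, Crabp2 minus Crabp1 averaged 1.45 ± 0.21 in Hdac3-Isl1KO and 1.05 ± 0.076 in Hdac3-flox/flox (SD, n = 3 each), with no overlap and an exact permutation p of 0.1, or 0.133 adjusted over the 4 pairs. Of 5 measured neural crest markers 0 passed with limma and 2 had an unadjusted p under 0.05 (14.5% of all genes), in opposite directions. Ednrb, an endothelin receptor that other cells also express, differed by -0.44 and the transcription factor gene Tfap2b by 0.41. Tfap2b was dim, with a mean of 4.41, and its groups overlapped.

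Rarb, the retinoic acid receptor gene whose promoter repeat is printed above, read 6.98, 6.80 and 6.64 in Hdac3-Isl1KO, against 6.75, 6.87 and 6.89 in Hdac3-flox/flox. The Hdac3-Isl1KO arrays held both the highest and the lowest value. The difference was -0.030 (95% interval -0.27 to 0.21, limma adjusted p = 0.923), which bounds the level between 0.832 and 1.15 times that of Hdac3-flox/flox. Its sign turned under quantile normalization (0.024) and without Hdac3-Isl1KO replicate 3 (0.053).

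The breakdown enzymes had differences close to 0. Cyp26a1, the other gene with the repeat, read 4.51, 4.93 and 4.44 in Hdac3-Isl1KO, against 4.50, 4.71 and 4.53 in Hdac3-flox/flox. Replicate 2 was the highest array in both groups. The difference was 0.046 (95% interval -0.28 to 0.38, limma adjusted p = 0.912), and it was -0.10 without Hdac3-Isl1KO replicate 2. The gene was dim, close to the 25th percentile row at 4.45, so that a change in it could be understated. Cyp26b1 read 5.74, 6.06 and 6.09 in Hdac3-Isl1KO, against 5.86, 6.29 and 5.97 in Hdac3-flox/flox, and the groups overlapped. Its difference was -0.079 (95% interval -0.42 to 0.26, limma adjusted p = 0.845), and the sign turned with array weights (0.035), without Hdac3-Isl1KO replicate 1 (0.034) and without Hdac3-flox/flox replicate 2 (0.046). Cyp26a1 minus Cyp26b1 within arrays averaged -1.34 ± 0.27 in Hdac3-Isl1KO and -1.46 ± 0.11 in Hdac3-flox/flox (SD, n = 3 each, exact permutation p = 0.5, also 0.5 adjusted over the 4 pairs), and the groups overlapped. Cyp26c1, the third gene of this family and the neighbour of Cyp26a1 on chromosome 19, differed by -0.015 (95% interval -0.20 to 0.17).

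Beyond Rarb and Cyp26a1, 11 other measured genes had the repeat with a spacer of 5 in a promoter window. Over all 13 the median difference was 0.032, with 7 above and 6 below 0, against a median of 9.4e-05 over all genes. Of the 13, the platelet chemokine gene Ppbp (-0.93, limma adjusted p = 0.0300) was called, against 0.428% of all genes in either direction. It was named for this after its value was seen. The next largest were Gm5955 (0.38) and Syndig1 (0.30), with limma adjusted p-values of 0.567 and 0.291. The octamer ATGCAAAT was present in a window of 318 measured genes, whose median difference was 0.013, with 3 genes called higher and 1 lower, against 0.23% and 0.198% of all genes. The lower one was Aldh1a1, from whose window the octamer was picked, so it tells nothing about the other genes.

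The other genes of the pathway were read from the same fit. Of 22 listed genes 19 were measured, and with limma 0 passed over all genes while 4 had an unadjusted p under 0.05, against 14.5% of all genes. Groups did not overlap for 6 of the 19, against 21.8% of all genes, a share that stands beside the pathway genes named below. The 19 genes had a median difference of 0.034, and their differences lay between -0.21 and 0.34, a range that Aldh1a1, Aldh1a2 and Crabp2 all exceeded.

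Among the genes for retinol transport and storage, all 5 measured had positive differences, with a median of 0.12. Lrat, which stores retinol as esters, read 5.26, 5.12 and 5.14 in Hdac3-Isl1KO, against 4.95, 4.81 and 5.05 in Hdac3-flox/flox, a difference of 0.24 (limma adjusted p = 0.284). Ttr, the plasma carrier that holds retinol-binding protein, read 6.25, 6.23 and 6.27 in Hdac3-Isl1KO, against 6.00, 5.54 and 6.18 in Hdac3-flox/flox, a difference of 0.34 (limma adjusted p = 0.378). Neither gene had overlapping groups, and the Ttr gap to the nearest Hdac3-flox/flox array was small. Rbp4, the retinol-binding protein itself, differed by 0.12 and Rbp2, a separate cellular retinol-binding protein gene, by 0.096. Ttr and Rbp4 are also products of yolk sac endoderm, and 8 of 8 markers of hepatic and yolk sac endoderm had positive differences (median 0.48). Of these Fgb rose (0.93, limma adjusted p = 0.0204), against 0.23% of all genes called higher, while Afp (0.84) and Alb (0.71) did not pass. That list was made with earlier results of these data known, so it gives no independent evidence. The mean of those 8 per array was 5.74 to 5.80 in Hdac3-Isl1KO and 5.23 to 5.32 in Hdac3-flox/flox, and their part in the Ttr and Rbp4 values was not tested.

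The oxidoreductases that interconvert retinol and retinal had a median of -0.034 over 7 genes. Rdh10, which makes retinal in the embryo, differed by -0.060 (95% interval -0.26 to 0.14), and Dhrs3, which reduces retinal back to retinol and is itself induced by retinoic acid, by -0.022 (-0.20 to 0.16). Rdh11, a retinal reductase, read 8.10, 8.05 and 7.99 in Hdac3-Isl1KO, against 8.23, 8.30 and 8.24 in Hdac3-flox/flox. Its groups did not overlap, and the difference of -0.21 had a limma adjusted p of 0.235. Dhrs9 (0.11) and Adh7 (-0.11) were the next by p. Fabp5, which can carry retinoic acid to another receptor, differed by 0.18 (limma adjusted p = 0.484).

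Of the nuclear receptors other than Rarb, Rxra read 7.08, 6.96 and 6.98 in Hdac3-Isl1KO, against 6.85, 6.79 and 6.73 in Hdac3-flox/flox. Rxrg read 5.41, 5.38 and 5.42 in Hdac3-Isl1KO, against 5.63, 5.58 and 5.52 in Hdac3-flox/flox. Both are partners of the retinoic acid receptors. Neither had overlapping groups, Rxra being higher and Rxrg lower, as was so for 21.8% of all genes in either direction. The differences were 0.22 and -0.17, with limma adjusted p-values of 0.247 and 0.298. Rara differed by 0.15 without overlap and Rarg by 0.13 with overlap, and neither passed (limma adjusted p = 0.407 and 0.504).

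**Figure D3:**
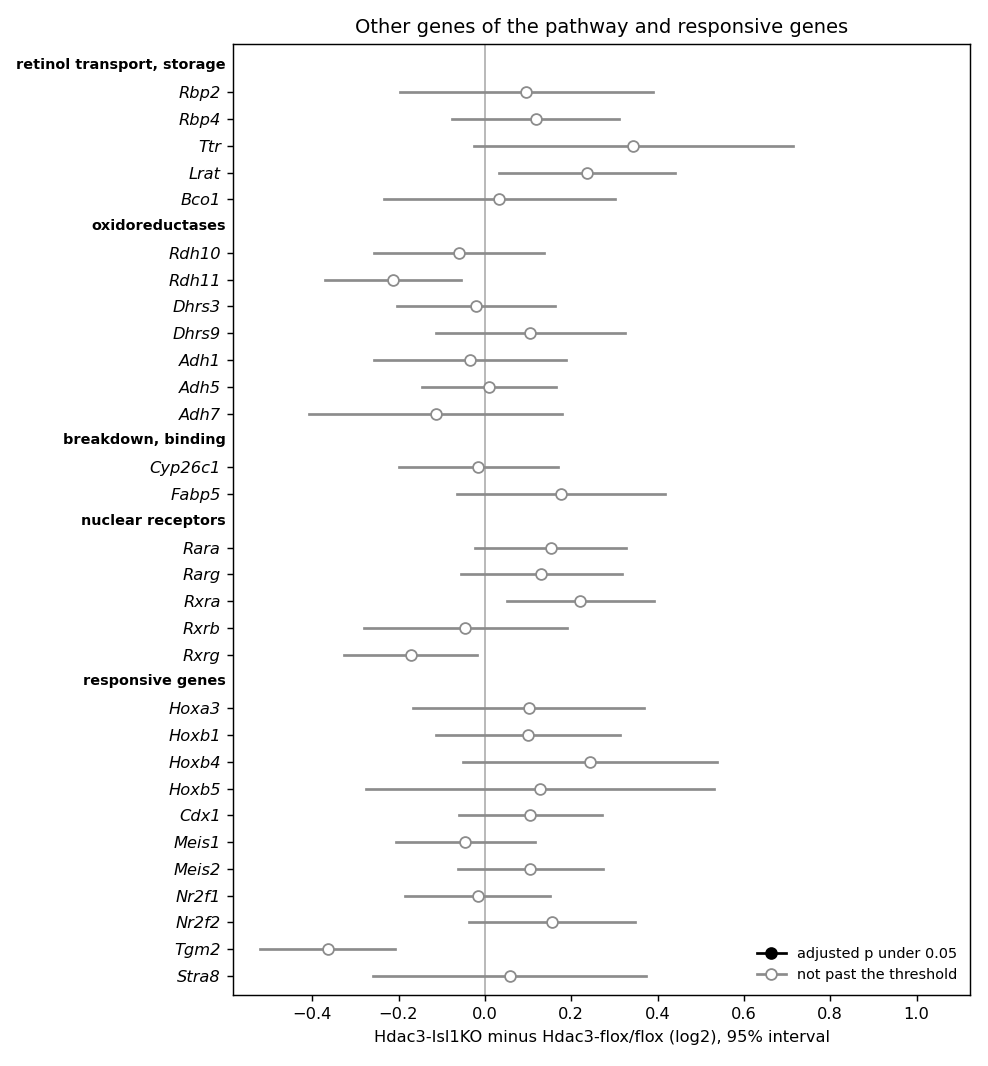
Differences (log2, Hdac3-Isl1KO minus Hdac3-flox/flox) with 95% intervals for the 19 other measured pathway genes and 11 responsive genes. All points are open because 0 of them passed the threshold, and Tgm2 lies farthest from 0.

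Genes known to respond to retinoic acid gave a second readout. Of 13 listed, 11 were measured, with 8 differences above 0 and 3 below, and a median of 0.10. With limma 0 passed over all genes and 1 had an unadjusted p under 0.05, against 14.5% of all genes. That gene was Tgm2, a transglutaminase gene induced by retinoic acid in many cells. It read 9.21, 9.30 and 9.18 in Hdac3-Isl1KO, against 9.59, 9.62 and 9.58 in Hdac3-flox/flox, and the groups stood well apart. The difference was -0.36 (95% interval -0.52 to -0.21, limma adjusted p = 0.0880). The 4 measured Hox genes of this list, Hoxa3, Hoxb1, Hoxb4 and Hoxb5, differed by 0.10, 0.10, 0.24 and 0.13 with overlapping groups, and the smallest of their limma adjusted p-values was 0.429, for Hoxb4. Nr2f2, an orphan receptor gene of atrial cells, differed by 0.16 and its relative Nr2f1 by -0.016. Cdx1, a homeobox gene of the posterior embryo, differed by 0.11. Hoxa3, Hoxb4 and Cdx1 had means of 4.93, 4.78 and 4.65, below the median row at 5.66, so a change in them could be understated.

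Profiles over the 6 arrays were compared by the root mean square distance between log2 values, each gene centred on its own mean, among 10363 genes brighter than the median gene. These distances describe likeness in 6 arrays, all of which share the genotype contrast. A gene equal in all arrays would lie at 0.453 from Aldh1a1, 0.364 from Aldh1a2 and 0.311 from Crabp2. The median distances given below are close to these, so a gene with a similar genotype difference is near by that alone. Nearest to Aldh1a1 were Hpgd, which breaks down prostaglandins (0.067), the matrix proteoglycan gene Dcn (0.067), the decidual prolactin gene Prl8a2 (0.077), the blood group gene Kel (0.079) and the uroplakin gene Upk3b (0.094), against a median distance of 0.444. Hpgd, for example, read 6.35, 6.30 and 6.37 in Hdac3-Isl1KO, against 7.23, 7.31 and 7.05 in Hdac3-flox/flox. Like Aldh1a1, it was highest in Hdac3-flox/flox replicate 2.

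Nearest to Aldh1a2 were Mfsd4b4 (0.089), Strip2 (0.114), the blood cell gene Plek (0.119), the platelet tubulin gene Tubb1 (0.123) and Cpt1a, the carnitine palmitoyltransferase gene (0.126), against a median distance of 0.360. Tubb1 read 6.04, 5.49 and 5.83 in Hdac3-Isl1KO, against 6.71, 6.53 and 6.81 in Hdac3-flox/flox, with the low array, replicate 2, the same as for Aldh1a2 in both groups. The distance between Aldh1a1 and Aldh1a2 themselves was 0.218. No gene was among the 5 nearest to both, which says little with 10363 candidates. Nearest to Crabp2 were Dpep1 (0.068), a dipeptidase gene, and 4 genes of ribosomal proteins, Rpl35 (0.073), Rps19 (0.089), Rpl27 (0.098) and Rpl41 (0.103), against a median distance of 0.339. Dpep1 read 6.31, 6.28 and 6.39 in Hdac3-Isl1KO, against 5.94, 5.64 and 6.01 in Hdac3-flox/flox.

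**Figure D4:**
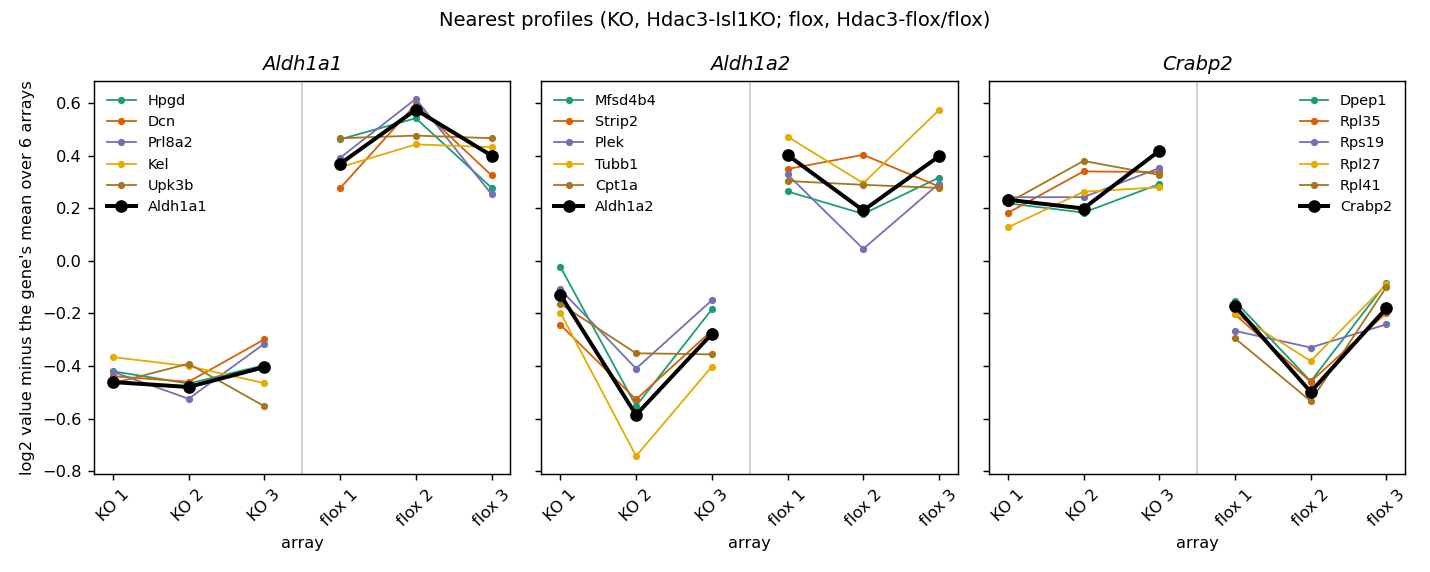
Log2 values minus each gene's mean over the 6 arrays for Aldh1a1, Aldh1a2 and Crabp2 (black) and the 5 genes nearest to each (colours), with Hdac3-Isl1KO arrays on the left and Hdac3-flox/flox arrays on the right. Aldh1a1 and Crabp2 depart most in Hdac3-flox/flox replicate 2, upward and downward, and Aldh1a2 in Hdac3-Isl1KO replicate 2, downward.

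Genes that neighbour Aldh1a1 and Aldh1a2 on their chromosomes differed less than they did. The nearest measured coding genes on either side of Aldh1a1, Anxa1 and Aldh1a7, differed by -0.27 and 0.092, with limma adjusted p-values of 0.185 and 0.749. Those beside Aldh1a2, Aqp9 and Polr2m, differed by 0.054 and 0.12 (limma adjusted p = 0.815 and 0.446). Beside Crabp2, Isg20l2 and Nes differed by 0.037 and 0.12 (limma adjusted p = 0.863 and 0.587).

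Markers of tissues that express these enzymes were read beside them. Of 12 measured markers of the epicardium and proepicardium, which express both Aldh1a1 and Aldh1a2, 2 fell, against 0.198% of all genes called lower. These were Upk3b (-0.94, limma adjusted p = 0.00895) and Upk1b (-0.72, limma adjusted p = 0.0268). The list was made with earlier results of these data known, so they are no independent evidence. The median of the 12 was -0.16, with 9 below 0, and the mean per array was 7.11 to 7.18 in Hdac3-Isl1KO and 7.32 to 7.44 in Hdac3-flox/flox. Members of the list did not all do the same: Wt1, a defining transcription factor of the epicardium, differed by 0.0014 (95% interval -0.20 to 0.20), Tbx18 by -0.19, Tcf21 by -0.19 and Sema3d by -0.36 (limma adjusted p = 0.194). The part of these cells in the Aldh1a1 and Aldh1a2 values was not tested.

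Among markers of the sinus venosus and atrium, the venous end where Aldh1a2 is active, 0 of 7 passed with limma and 3 had an unadjusted p under 0.05, against 14.5% of all genes, a share that also stands beside the next 2 lists. These were Kcnj3 (-0.28), Tbx5 (-0.18) and Sln (-0.35). Sln was dim, with means of 3.82 in Hdac3-Isl1KO and 4.17 in Hdac3-flox/flox, below the 25th percentile row at 4.45. Its groups overlapped. The mean of the list was 7.64 to 7.67 in Hdac3-Isl1KO and 7.73 to 7.87 in Hdac3-flox/flox. Of 3 posterior second heart field genes 0 passed with limma, and 1, Osr1 (-0.30), had an unadjusted p under 0.05, while Foxf1 differed by 0.11 and Isl1 by -0.033. The 7 cardiomyocyte genes had 6 differences below 0 and a median of -0.12, and 0 passed, with 2, Myl7 (0.16) and Ttn (-0.19), at an unadjusted limma p under 0.05. Groups did not overlap for all 7 of them, against 21.8% of all genes.

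Markers of other tissues that a dissected heart can carry along are given beside the Aldh1a1 and Crabp2 values because their part in those was not tested. Of 4 measured decidual markers 1 fell, Prl8a2 (-0.84, limma adjusted p = 0.0410), against 0.198% of all genes called lower. The Prl8a2 profile was among the nearest to Aldh1a1. This list too was made with earlier results of these data known, so the call is no independent evidence. Hoxa10 (0.094), Prl3c1 (0.081) and Pgr (0.025) were dim, had differences above 0 and did not pass. The mean of these 4 was 4.81 to 4.89 in Hdac3-Isl1KO and 4.93 to 5.06 in Hdac3-flox/flox. Of 7 measured trophoblast genes 5 rose, against 0.23% of all genes called higher, Prl4a1 by the most (1.81, limma adjusted p = 0.00127). The mean of the 7 was 6.92 to 7.08 in Hdac3-Isl1KO and 5.82 to 6.09 in Hdac3-flox/flox. Those 5 were listed because they had been seen to rise in these arrays, so they are no independent evidence, and the other 2, Tpbpa (0.096) and Hand1 (0.16), did not pass. Epithelial and foregut markers had 7 of 8 differences above 0 (median 0.36, 0 passed and 5 at an unadjusted limma p under 0.05, against 14.5% of all genes, among them Krt8 at 0.48, Epcam at 0.52 and Krt18 at 0.39). Their mean was 6.28 to 6.42 in Hdac3-Isl1KO and 6.03 to 6.14 in Hdac3-flox/flox. Endothelial (6 genes, median -0.055), neural tube (4 genes, median 0.042) and primitive erythroid genes (2 genes, median -0.10) had 0 calls with limma and 0 at an unadjusted p under 0.05.

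**Figure D5:**
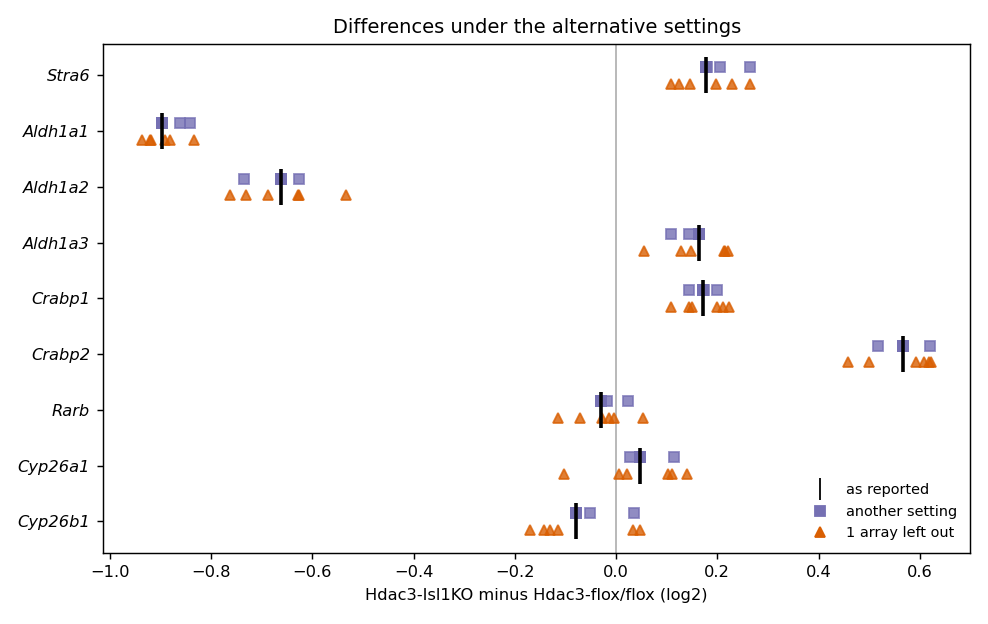
Difference of each gene (log2, Hdac3-Isl1KO minus Hdac3-flox/flox) as reported (black bar), under the other settings (squares) and with 1 array left out (triangles). Aldh1a1, Aldh1a2 and Crabp2 stay on their side of 0 in all 14 alternatives, as do Stra6, Crabp1 and Aldh1a3 in those that keep them, while Rarb, Cyp26a1 and Cyp26b1 cross 0.

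Across the 14 alternative settings Aldh1a1 passed in 8, with limma adjusted p-values between 0.000121 and 0.105. Stra6, Crabp1, Aldh1a3, Rarb, Cyp26a1 and Cyp26b1 passed in 0 of the settings that kept them.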

How the data were processed

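RNA from 6 pools of embryonic hearts, 3 per genotype, was hybridised to 1 array each, from 100 ng of total RNA with the GeneChip WT PLUS kit, per the labels' protocols. The authors deposited log2 expression values, made with oligo and RMA per the submitters' processing notes (background correction, quantile normalization between arrays, probe summary). Versions, detection calls and array batches were not stated in the labels or notes, so dim values cannot be told from background. Precision is limited by there being 3 arrays per genotype.

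Of 41345 rows, 23521 carried 1 gene symbol and gave 22180 genes, the brightest row standing for genes with several. A linear model per gene (limma 3.58.1, R 4.3.3, lmFit then eBayes with a constant prior, two-sided) gave the differences, and p-values were adjusted by Benjamini-Hochberg across every gene, with calls made under 0.05. SDs cover 3 arrays, and 95% intervals come from limma. The steps were tested on simulated data. Figures used matplotlib 3.10.9 in Python 3.11.15. Promoter windows came from RefSeq on GRCm38.p6. The genes, the lists and the alternatives were chosen with earlier results of these data known. Every gene of the group was named. From the other lists those with the smallest p were named, up to 4 per pathway list and up to 3 per cell type list, with other members added after their values were seen. For the profiles the 5 nearest genes were named, leaving out predicted, small RNA and olfactory or vomeronasal receptor genes. The motif, neighbour and family comparisons outside these were chosen after the values were seen, apart from the receptor repeats. Some listed genes are not reported here.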

Additional observations from a re-analysis of the deposited data

How the results depend on the processing

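The differences of Aldh1a1, Aldh1a2 and Crabp2 kept their direction in all 14 alternatives, and the 19 other pathway genes had 0 calls in each. With the replicate number as a block, a number that did not pair the arrays (deviations from the group means correlated at -0.013, -0.086 and 0.040 between arrays of the same number), 0 of the 9 genes and 0 of all genes were called, with fewer residual degrees of freedom, and Aldh1a1 had a limma adjusted p of 0.105. A prior that follows the mean level called 3 of the 9 and 866 of all genes, and dropping genes dimmer than the median row, with fewer genes tested, called 3 and 617. Leaving out genes below the 25th percentile row called 235 genes, array weights 243 and quantile normalization 149, against 95 as reported, and the cause was not tested for weights and quantile normalization. With 1 array left out, 0 to 1 of the 9 and 2 to 25 of all genes were called, and the within-array differences of relatives ranged from -1.16 to -0.97 (Aldh1a1 minus Aldh1a3), -0.95 to -0.68 (Aldh1a2 minus Aldh1a3), 0.28 to 0.46 (Crabp2 minus Crabp1) and 0.027 to 0.28 (Cyp26a1 minus Cyp26b1). Signs turned for Rarb under quantile normalization (0.024) and without Hdac3-Isl1KO replicate 3 (0.053), for Cyp26a1 without Hdac3-Isl1KO replicate 2 (-0.10), and for Cyp26b1 with array weights (0.035), without Hdac3-Isl1KO replicate 1 (0.034) and without Hdac3-flox/flox replicate 2 (0.046). With 1 array left out, Rarb ranged from -0.11 to 0.053, Cyp26a1 from -0.10 to 0.14 and Cyp26b1 from -0.17 to 0.046. Dim genes such as Cyp26a1 and Aldh1a3 sit near background, which limits what can be seen of them.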
